A study of Mus musculus with 12 samples.

Results

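The genes described here encode the subunits of the oxidative phosphorylation (OXPHOS) system of mouse liver mitochondria. They were chosen by symbol alone, as every gene of the count table whose name begins as an Nduf, Sdh, Uqcr, Cox or Atp5 subunit, or as a protein-coding gene of the mitochondrial genome. The symbol rule matched 97 genes, and 4 with -ps in the symbol and 2 annotated as pseudogenes were left out. This gave 91 of the 24187 genes of the table, of which 78 lie in the nucleus and 13 on mitochondrial DNA. Complex I had 42 members, complex II 4, complex III 9, complex IV 17 and complex V 19. Atp5s is matched by its symbol but encodes coupling factor B rather than a fixed subunit. Ndufa4 and Ndufa4l2 carry complex I names and were counted with complex IV, where the Ndufa4 protein sits. Cox6a2, Cox7b2, Cox8b, Cox8c and an extra entry for Atp5o were not analysed here. Cox4i1, Cyc1 and Ndufab1 are subunits whose names fall outside the symbol rule, and their values are given apart.

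Whole liver of mice was measured by bulk RNA sequencing to ask how acetaminophen (APAP) injury, and human macrophages given after it, alter the tissue. Control mice (n = 3) were untreated. Vehicle-treated mice (n = 5) received APAP, at 350 mg/kg by the labels, and then phosphate-buffered saline. The study also used a higher dose and shows this sequencing beside that more severe model, so the dose given to these mice is uncertain. hAAM-treated mice (n = 4) received the same APAP dose and then human alternatively activated macrophages (hAAMs), which are blood monocytes grown with CSF1 and polarized with IL-4 and IL-13. The study's methods name both C57BL/6J and the substrain C57BL/6JOlaHsd, and the labels give no strain. By the methods the mice were 10 to 12 weeks old, APAP was given to fasted mice, and cells or vehicle were injected intravenously 16 h after APAP. The methods describe fasting before APAP or a saline injection, whereas the labels call these control mice untreated. Whether they were fasted is therefore unclear, and fasting, APAP and the injection cannot be told apart in a comparison with control. The sex of these mice and the time at which these livers were collected are not given for them separately.

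OXPHOS is the final stage of respiration. Complexes I and II take electrons from NADH and succinate, complex III passes them to cytochrome c, complex IV hands them to oxygen, and complexes I, III and IV pump protons whose return through complex V makes ATP. Complex II is built from nuclear genes alone, whereas the other complexes combine nuclear subunits with a core encoded by mitochondrial DNA, which is transcribed as long polycistronic RNAs by a polymerase of its own. Liver is rich in mitochondria, and in APAP overdose the mitochondria of hepatocytes around the central vein are a known site of damage.

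Each liver gave a total of 47391650 to 74056505 counts, with medians of 62192043 in the control group, 55561428 with vehicle and 50844350 with hAAM. A pair of libraries from different groups was close to identical. Across genes with a mean of at least 100 counts, hAAM replicate 4 and vehicle replicate 3 differed by 1.20 times what counting noise alone gives, and every other pair of livers after APAP, 35 in all, by 2.86 to 7.89 times. Both were kept under their labels, and counts of calls are also given without them where they change. Levels are CPM, read counts scaled by library size and a TMM factor that sets the bulk of genes level. That factor was 0.832 to 0.859 for control, 1.02 to 1.13 for vehicle and 0.933 to 1.14 for hAAM libraries. All directions given are on this TMM scale. Without the TMM factor, genes as a whole sat at a median log2 fold change of 0.36 with vehicle and 0.32 with hAAM, and no member passed the test as lower. The median of nuclear members moved to 0.05 with vehicle and 0.11 with hAAM, and that of mitochondrial members to 0.07 and −0.25. With vehicle 24 of 78 nuclear and 4 of 13 mitochondrial members were then still below 0, against 73 and 13 with TMM, and 12 of the 34 members called lower had changed sign. Relative to the median of all genes, the values under TMM and under library size were −0.30 and −0.31 for nuclear members with vehicle, −0.20 and −0.21 with hAAM, −0.29 and −0.28 for mitochondrial members with vehicle, and −0.57 under both with hAAM.

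All 91 members passed the filter on low counts, and most were abundant. Per kilobase of exon, the median level over all livers was 27.6 CPM for nuclear members and 2860 CPM for mitochondrial members, against 1.58 CPM for all genes tested. The most abundant nuclear members per kilobase in control livers were Atp5a1 at 181 CPM and Atp5b at 166 CPM, the α and β subunits of the catalytic head of ATP synthase. Cox6b2, Ndufa4l2, Ndufb2, Atp5s and Cox7a1 were the least abundant, between 0.118 and 1.4 CPM per kilobase. Cox6b2 had only 4 to 9 counts per control liver. Among mitochondrial members, mt-Co1 was highest at 7847 CPM per kilobase and mt-Nd3 lowest at 918.

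The mitochondrial genes lie end to end, and some share bases, which limits how their reads can be assigned. The stretches of more than 1 base shared by genes on the same strand are printed because the text gives separate values for the genes on both sides of them. Sequences were taken from the GENCODE M21 transcripts of GRCm38, read along the plus strand of the mitochondrial genome (chrM), and capitals mark the bases that belong to both genes.
mt-Atp8 and mt-Atp6 (chrM:7907-7969): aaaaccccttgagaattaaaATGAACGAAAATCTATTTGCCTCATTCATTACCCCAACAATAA
mt-Nd4l and mt-Nd4 (chrM:10147-10173): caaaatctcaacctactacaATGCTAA
The first pair shares 43 bases and the second 7. mt-Atp6 and mt-Co3 share 1 base, at chrM:8607, which is not shown. mt-Nd6 (chrM:13552-14070) lies on the other strand and shares 14 positions with the end of mt-Nd5 (chrM:11742-13565). The counting mode and the use of strand are not given in the sources used here, so reads may have been exchanged between these neighbours, and between any member and its near-identical copies elsewhere in the genome.

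With vehicle, 34 of the 91 members fell against control (edgeR quasi-likelihood test, FDR under 0.05 over 22581 genes) and 0 rose, where 14.8% of all genes tested fell and 15% rose. The members that fell were 32 of the 78 nuclear and 2 of the 13 mitochondrial genes. With hAAM, 20 members fell and 1 rose, where 9.96% of all genes fell and 10.7% rose. This time 7 of the 78 nuclear and all 13 mitochondrial genes fell. The median log2 fold change of nuclear members was −0.29 with vehicle and −0.18 with hAAM, and that of mitochondrial members −0.28 and −0.55, beside 0.01 and 0.02 for all genes. The nuclear genes made up most of the calls with vehicle and the mitochondrial genes most of the calls with hAAM, although the comparison of the treated groups with each other, given further on, called none of them.

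**Figure D1:**
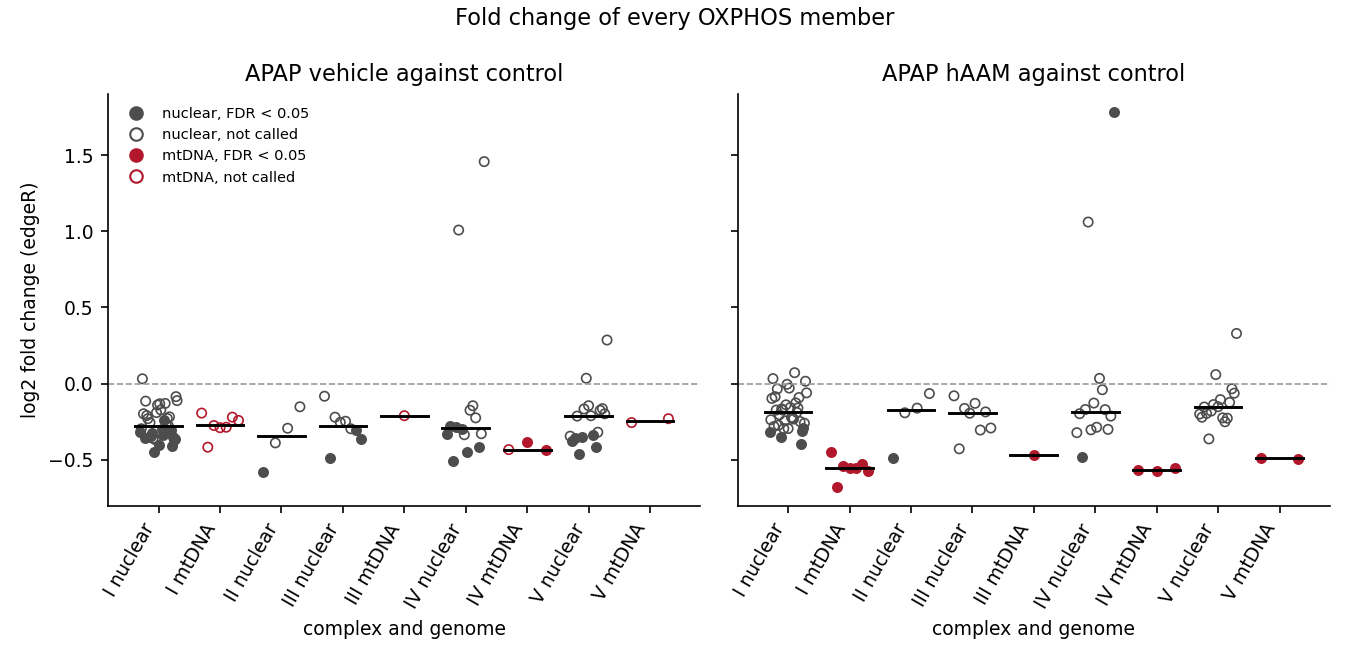
Log2 fold change of each of the 91 members against control (y axis) by complex and genome (x axis), on the TMM scale, with vehicle on the left and hAAM on the right. Each point is 1 gene, filled where its FDR was under 0.05, and each bar is the median of the column. Nuclear medians lie below 0 in both panels on this scale, and above it with library-size scaling, and all 13 mitochondrial (mtDNA) points are filled with hAAM while 2 are filled with vehicle.

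The number of calls against control moved with single livers. Control replicate 1 had the highest summed nuclear level, and without it 7 of 78 nuclear members fell with vehicle instead of 32. In that fit 2429 of 23090 genes fell, so nuclear members were called no more often than genes as a whole. The same 7 members fell in each of the 12 fits that left out 1 library, and they were Ndufa8, Ndufs6, Ndufs8, Sdha, Cox6a1, Cox7a2 and Atp5j2. Without control replicate 2 or 3, 0 mitochondrial members fell with vehicle, where 2748 of 23081 and 2407 of 23084 genes fell. With hAAM, 3 nuclear members fell without control replicate 1, hAAM replicate 1 or hAAM replicate 2, and 19 fell without hAAM replicate 3. Among all genes, 1511 of 23090, 1396 of 22475, 1446 of 22466 and 2551 of 22511 fell in these fits, in that order. Of the 13 mitochondrial members, 3 fell with hAAM without control replicate 3 and 5 without control replicate 2, hAAM replicate 1 or hAAM replicate 2. Among all genes, 1307 of 23084 fell with hAAM without control replicate 3 and 1783 of 23081 without control replicate 2. Without both near-identical libraries, 22 nuclear and 2 mitochondrial members fell with vehicle, and 5 nuclear and 13 mitochondrial members with hAAM. In that setting 14% of all genes fell with vehicle and 8.49% with hAAM. The 11 calls with vehicle that were then lost were Ndufa9, Ndufb8, Ndufb9, Ndufc1, Ndufs5, Ndufv1, Cox5a, Cox5b, Cox6b1, Atp5b and Atp5c1, at FDR values from 0.0513 in Ndufv1 to 0.0888 in Ndufb8. With hAAM those of Ndufs7 and Ndufs8 were lost. Ndufb10 was then lower with vehicle (log2 fold change −0.44, FDR 0.0195), and Atp5s and Ndufa4l2, described with their complexes, were higher.

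Complex I oxidizes NADH through a peripheral arm and pumps protons through a membrane arm. With vehicle 15 of its 35 nuclear subunits fell and 0 rose (median log2 fold change −0.28), and with hAAM 5 fell and 0 rose (−0.19). By module, the fallen subunits with vehicle were 3 of 10 in the NADH-oxidizing N module, 2 of 5 in the ubiquinone-reducing Q module and 10 of 20 in the proton-pumping P module. With hAAM they were 1 of 10, 2 of 5 and 2 of 20. Of all genes 14.8% were called lower with vehicle and 9.96% with hAAM, so the N and P modules stood at the background with hAAM. With both near-identical libraries left out, 2, 2 and 6 subunits of the N, Q and P modules fell with vehicle and 1, 0 and 2 with hAAM, where 14% and 8.49% of all genes were called lower. Ndufb11 (ENSMUSG00000031059, GRCm38 chrX:20615326-20617619), a single-span subunit of the membrane arm, had 63.7, 57.2 and 54.8 CPM in control livers, 43.8, 46.9, 49.2, 36.4 and 38.1 with vehicle and 43.9, 40.2, 56.4 and 50.3 with hAAM. All vehicle-treated livers lay under the control range, and 1 hAAM-treated liver lay within it. Its fall with vehicle was the largest of the complex (log2 fold change −0.45, SE 0.12, FDR 0.0178), and with hAAM it missed the threshold (log2 fold change −0.30, FDR 0.128).

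Ndufs6, an N-module subunit needed late in assembly (ENSMUSG00000021606, chr13:73319838-73328542), fell in both groups. It had 33.8, 27 and 29.6 CPM in control livers, 23.5, 23.3, 23.8, 22.2 and 20.6 with vehicle and 21.8, 21.4, 24.5 and 24 with hAAM, and no treated liver reached the control range. The fall was 24.9% with vehicle (log2 fold change −0.41, SE 0.08, FDR 0.00402) and 24% with hAAM (log2 fold change −0.40, SE 0.09, FDR 0.0101). Ndufa8, an accessory subunit on the intermembrane-space side (ENSMUSG00000026895, chr2:36036326-36049406) fell too, with 43.7, 41.3 and 39.6 CPM in control livers, 33.9, 33.5, 35, 29.7 and 31.2 with vehicle and 33.7, 29.6, 31.9 and 35 with hAAM. Its log2 fold change was −0.35 with vehicle (FDR 0.00526) and −0.35 with hAAM (FDR 0.010). Ndufs6 and Ndufa8 were the only complex I genes that fell in both groups in all 12 fits without 1 library. Ndufa1, a small accessory subunit, fell in both groups, at −0.32 (FDR 0.0106) and −0.32 (FDR 0.0194), and with library-size scaling it was at 0.025 with vehicle. The iron-sulfur subunits Ndufs7 and Ndufs8 of the Q module fell with vehicle at −0.35 (FDR 0.0105) and −0.37 (FDR 0.00844), and with hAAM at −0.31 (FDR 0.032) and −0.29 (FDR 0.041). The other complex I genes that fell with vehicle, Ndufb5, Ndufa13, Ndufa6, Ndufb9, Ndufa9, Ndufs5, Ndufb8 and Ndufc1, ran from −0.40 in Ndufb5 to −0.24 in Ndufc1. The 20 that were not called ran from −0.37 in Ndufb2 to 0.03 in Ndufa11. Without both near-identical libraries Ndufs7 and Ndufs8 no longer passed with hAAM, at an FDR of 0.0659 and 0.0585.

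Among core catalytic subunits of complex I, Ndufv1, which binds NADH and flavin, fell with vehicle (log2 fold change −0.36, SE 0.13, FDR 0.0473), and passed in 3 of the 12 fits without 1 library. Ndufs1, the largest iron-sulfur subunit, had a log2 fold change of −0.26 with vehicle (FDR 0.0692) and −0.13 with hAAM (FDR 0.427). Of the nuclear complex I subunits, the nearest to no difference was Ndufa11, an accessory subunit, with 0.03 (FDR 0.793) with vehicle, at a 95% interval of −0.14 to 0.20.

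Complex II, or succinate dehydrogenase, also works in the citric acid cycle. Sdha (ENSMUSG00000021577, chr13:74322254-74350280), its flavoprotein that oxidizes succinate, showed the largest fall of all 91 members with vehicle. It had 409.6, 319 and 315 CPM in control livers, 235, 245, 268, 211 and 202 with vehicle and 231, 213, 286 and 264 with hAAM, and every treated liver lay under the lowest control liver. The fall was 33.2% with vehicle (log2 fold change −0.58, SE 0.13, FDR 0.00688) and 28.6% with hAAM (log2 fold change −0.49, SE 0.14, FDR 0.0286). With hAAM the call was lost without control replicate 1 (log2 fold change −0.35, FDR 0.126), without hAAM replicate 1 (−0.45, FDR 0.0774) and without hAAM replicate 2 (−0.42, FDR 0.0786). The partner subunits did not pass. The iron-sulfur subunit Sdhb had −0.39 (FDR 0.116) with vehicle and −0.19 (FDR 0.498) with hAAM, with 46.5 to 75.7 CPM in vehicle-treated livers and 73.4 to 96.2 in control livers. The membrane anchors gave −0.29 (FDR 0.086) and −0.16 (FDR 0.394) for Sdhc and −0.15 (FDR 0.318) and −0.07 (FDR 0.724) for Sdhd. Whether Sdha fell more than its partners was not tested.

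**Figure D2:**
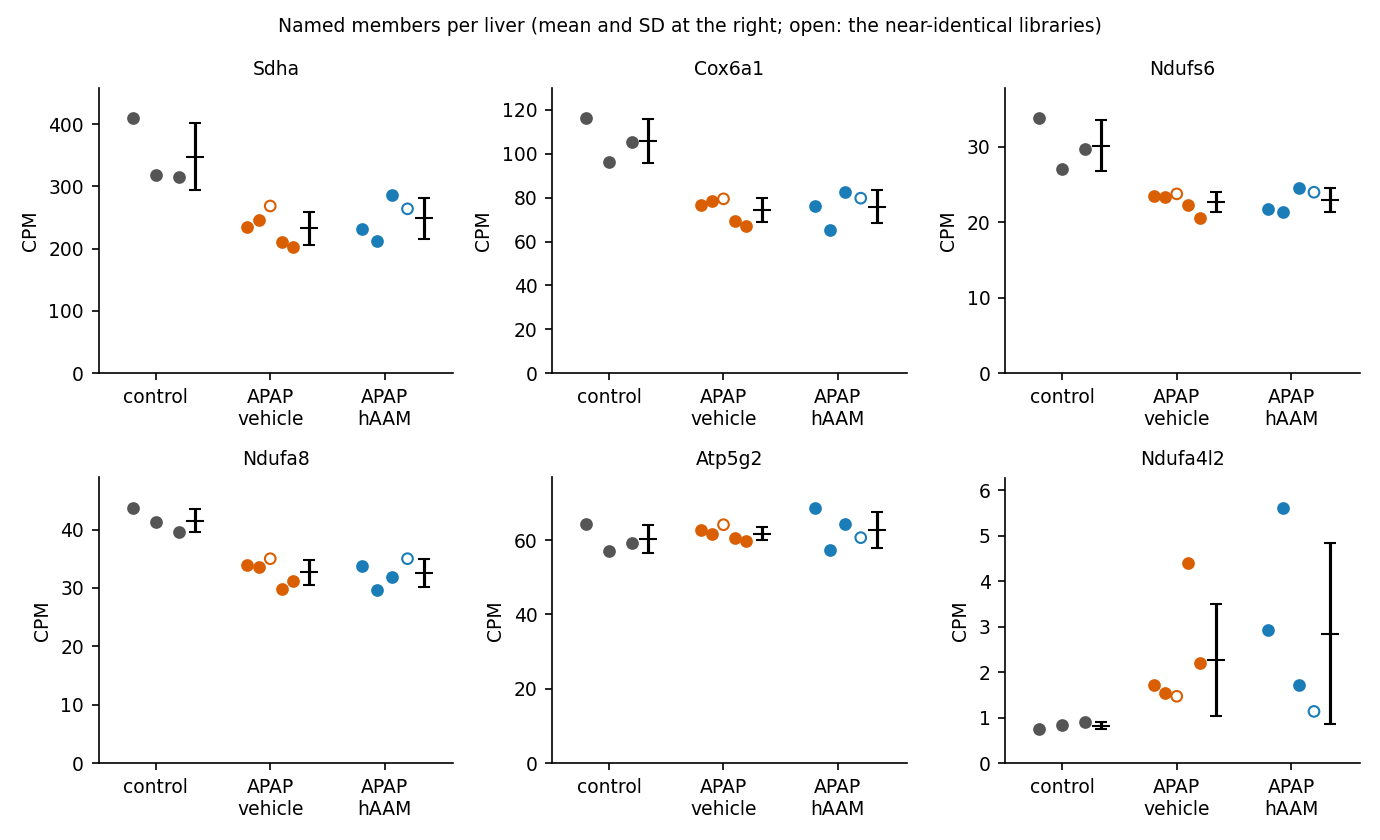
CPM on the TMM scale (y axis, from 0) in each liver of the 3 groups (x axis) for 6 members, with mean and SD beside the points and the near-identical libraries as open circles. Sdha, Cox6a1, Ndufs6 and Ndufa8 lie under the control range in every treated liver, Atp5g2 overlaps control in both groups, and Ndufa4l2 lies above it in every treated liver with a wide spread.

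Complex III passes electrons from ubiquinol to cytochrome c. With vehicle 3 of its 8 nuclear genes fell and with hAAM 0 did, where 14.8% and 9.96% of all genes fell. At an unadjusted p under 0.05, 3 of 8 were lower with hAAM, where 16.7% of all genes were. Uqcr11, a small accessory subunit (ENSMUSG00000020163, chr10:80402997-80406830), had 68.9, 57 and 57.6 CPM in control livers, 50.9, 44.4, 49.6, 37.4 and 35.7 with vehicle and 42, 37.4, 54.4 and 48 with hAAM. No treated liver reached the control range, and the test passed with vehicle (log2 fold change −0.49, SE 0.14, FDR 0.0234) but not with hAAM (log2 fold change −0.43, FDR 0.063). Uqcrq, a small membrane subunit, and Uqcrh, the hinge subunit, fell with vehicle at −0.37 (FDR 0.0318) and −0.30 (FDR 0.0398), and Uqcrh changed sign under library-size scaling, to 0.041. The core protein Uqcrc1 and the Rieske iron-sulfur protein Uqcrfs1 did not pass. Uqcrc1 gave −0.25 (FDR 0.127) with vehicle and −0.19 (FDR 0.293) with hAAM, and Uqcrfs1 gave −0.30 (FDR 0.0766) and −0.31 (FDR 0.10).

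Complex IV, or cytochrome c oxidase, had 7 of 14 nuclear genes fall with vehicle and 1 of 14 with hAAM, and 4 and 1 of 14 with both near-identical libraries left out. Among all genes 14.8% and 9.96% fell, or 14% and 8.49% without those libraries, so complex IV had no excess of falls with hAAM. Cox6a1 (ENSMUSG00000041697, chr5:115345642-115348981), the liver form of a regulatory subunit, had the smallest FDR of all members in both comparisons. It had 116, 96.3 and 105 CPM in control livers, 76.8, 78.7, 79.5, 69.5 and 67.2 with vehicle and 76.3, 65.2, 82.6 and 79.8 with hAAM, and the treated livers lay under every control liver. The fall was 29.8% with vehicle (log2 fold change −0.51, SE 0.10, FDR 0.00263) and 28.3% with hAAM (log2 fold change −0.48, SE 0.10, FDR 0.00768), and it passed in all 12 fits without 1 library in both comparisons. Cox7a2 fell with vehicle in all of those fits too (log2 fold change −0.45, SE 0.10, FDR 0.00773), and had −0.29 (FDR 0.0815) with hAAM, where 1 hAAM-treated liver at 54.9 CPM lay within the control range. Cox8a, in the membrane core, fell with vehicle at −0.42 (FDR 0.0139) and had −0.30 (FDR 0.0824) with hAAM.

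The remaining complex IV genes that fell with vehicle did so narrowly. Cox5a and Cox5b, which bind the matrix face of the enzyme, gave −0.33 (FDR 0.0429) and −0.28 (FDR 0.0353), and Cox6b1 and Cox6c gave −0.29 (FDR 0.0396) and −0.30 (FDR 0.0404). Each of these 4 changed sign under library-size scaling, at 0.0096, 0.068, 0.057 and 0.048. None of them passed with hAAM, at FDR values from 0.058 to 0.251. Cox7b, with −0.15 (FDR 0.384), Cox7a2l, a factor that joins complexes into supercomplexes, with −0.17 (FDR 0.279), and Ndufa4, with −0.33 (FDR 0.0634), did not pass with vehicle.

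Several complex IV subunits have paralogs used in other tissues. Ndufa4l2 (ENSMUSG00000040280, chr10:127514967-127517154), a paralog of Ndufa4 known to be induced by low oxygen in other cells, was the only member that rose with TMM scaling and all libraries. It had 0.743, 0.834 and 0.909 CPM in control livers, 1.72, 1.55, 1.47, 4.41 and 2.2 with vehicle and 2.93, 5.61, 1.72 and 1.14 with hAAM. Every treated liver lay above every control liver, but vehicle replicate 4 and hAAM replicate 2 had the highest values, at 4.41 and 5.61 CPM. The rise passed with hAAM (log2 fold change 1.78, SE 0.54, FDR 0.0359) and missed the threshold with vehicle (log2 fold change 1.46, SE 0.52, FDR 0.052). Without hAAM replicate 2 the Ndufa4l2 log2 fold change with hAAM was 1.22 (FDR 0.0979), and the call was also lost without hAAM replicate 1 (FDR 0.0701) and without control replicate 1, 2 or 3 (FDR 0.0897 to 0.102). Without both near-identical libraries Ndufa4l2 passed in both groups, at 1.58 (FDR 0.0271) with vehicle and 2.05 (FDR 0.0175) with hAAM. Cox6b2, the testis form of Cox6b1, was at the edge of detection with 6 to 21 counts per vehicle-treated liver and did not pass (1.01 (FDR 0.0895) with vehicle, 1.06 (FDR 0.106) with hAAM). Cox7a1, the heart and muscle form of Cox7a2, gave −0.34 (FDR 0.364) and −0.13 (FDR 0.78). Per kilobase in control livers the liver forms Cox6a1 and Cox6b1 stood at 151 and 139.9 CPM, against 0.118 for Cox6b2. Of 6 defining striated muscle markers, 2 were in the table and 1 rose in each group, with summed levels of 0.0762 to 0.198 CPM in control livers, 0.136 to 0.385 with vehicle and 0.189 to 0.317 with hAAM. Leaving out both near-identical libraries, 1 of these markers could be tested and 0 rose. None of 3 testis markers was in the table.

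Complex V, the ATP synthase, couples a membrane motor, through a rotating stalk, to a catalytic head. With vehicle 6 of its 17 nuclear genes fell, or 4 without both near-identical libraries, where 14.8% and 14% of all genes fell. With hAAM 0 fell, where 9.96% of all genes did. At an unadjusted p under 0.05, 2 were lower and 1 higher with hAAM, where 16.7% of all genes were lower and 18.5% higher. Atp5e (ENSMUSG00000016252, chr2:174461072-174464105), the ε subunit of the central stalk, had 66.2, 56.1 and 54.6 CPM in control livers, 50.4, 43.5, 45.7, 38 and 36.2 with vehicle and 44.9, 40.3, 51.3 and 46.8 with hAAM. Its treated livers lay under the control range in both groups, with a fall with vehicle (log2 fold change −0.46, SE 0.12, FDR 0.011) and −0.36 (FDR 0.0528) with hAAM. Atp5j2, the f subunit of the membrane sector, fell with vehicle in all 12 fits without 1 library (log2 fold change −0.41, SE 0.09, FDR 0.0059) and gave −0.25 (FDR 0.0826) with hAAM. The β subunit Atp5b, which holds the catalytic sites, had 813, 661 and 639.8 CPM in control livers, 588, 545, 595, 507 and 479.7 with vehicle and 579, 521, 708 and 610.2 with hAAM, and the γ subunit Atp5c1 gave −0.35 (FDR 0.0465) with vehicle. Both fell with vehicle, Atp5b at −0.38 (FDR 0.0416), and both overlapped control with hAAM. Atp5a1, the α subunit, just missed the threshold with vehicle, at −0.35 (FDR 0.0535).

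The membrane ring of complex V is made of 1 protein encoded by Atp5g1, Atp5g2 and Atp5g3, and none of these passed in either group with TMM scaling. Atp5g2 (chr15:102662864-102672352) had 60.2 ± 3.81 CPM (SD, n = 3) in control livers, 61.7 ± 1.76 (SD, n = 5) with vehicle and 62.7 ± 4.84 (SD, n = 4) with hAAM. Its log2 fold change with vehicle was 0.03 at a 95% interval of −0.12 to 0.19. With library-size scaling Atp5g2 passed as higher in both groups, at 0.38 (FDR 0.00388) and 0.36 (FDR 0.00972). Atp5g1 gave −0.17 (FDR 0.228) and −0.14 (FDR 0.374), and Atp5g3 gave −0.15 (FDR 0.373) and −0.15 (FDR 0.405). Atp5s, the coupling factor, gave 0.29 (FDR 0.143) and 0.33 (FDR 0.13), both above 0 and neither past the test. Without both near-identical libraries it passed as higher in both groups, at 0.36 (FDR 0.0376) with vehicle and 0.42 (FDR 0.0361) with hAAM, and it passed with library-size scaling too (FDR 0.00888 and 0.0164).

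The 13 mitochondrially encoded genes shared 1 direction in both comparisons with control on the TMM scale. With vehicle their log2 fold changes ran from −0.44 to −0.19, and only mt-Co2 and mt-Co3 fell. With hAAM they ran from −0.68 to −0.45, and all 13 fell, with FDR values from 0.0106 to 0.0479. The CPM ranges lay wholly under control for 11 of the 13 genes with vehicle and for 13 of 13 with hAAM, where 17.3% and 14.2% of all genes tested lay wholly under control. Under library-size scaling the log2 fold changes were −0.09 to 0.15 with vehicle and −0.39 to −0.16 with hAAM, and 0 passed in either group.

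Among the complex IV genes, which encode the catalytic core of cytochrome c oxidase, mt-Co1 (chrM:5328-6872) had 11588, 12242 and 12543 CPM in control livers, 8146, 8989.8, 9652, 9047 and 9052 with vehicle and 7259, 7102, 8678 and 9623 with hAAM. Its log2 fold change was −0.43 with vehicle (FDR 0.0562) and −0.57 with hAAM (FDR 0.0309). mt-Co2 (chrM:7013-7696) had 3707, 3929 and 4019 CPM in control livers, 2705, 3030.4, 3026, 3073 and 3086 with vehicle and 2429.8, 2426, 2580.2 and 3024 with hAAM. Every treated liver lay under control for both genes. mt-Co2 fell in both groups (log2 fold change −0.38, SE 0.12, FDR 0.0345 with vehicle, and log2 fold change −0.57, SE 0.13, FDR 0.0106 with hAAM). mt-Co3 (chrM:8607-9390) fell too, with a log2 fold change of −0.44 (FDR 0.0198) with vehicle and −0.56 (FDR 0.0123) with hAAM. mt-Co2 and mt-Co3 passed with hAAM in all 12 fits without 1 library, as did mt-Nd4l, and the other 10 mitochondrial genes passed in 2 to 11 of them.

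The 7 mt-Nd genes encode the proton-pumping core of complex I. mt-Nd2 (chrM:3914-4951) had the largest fall with hAAM, with 3836, 4043 and 3969.9 CPM in control livers, 2460.1, 2719.8, 3141, 2945 and 3519 with vehicle and 2097, 2069.9, 2609 and 3092 with hAAM (log2 fold change −0.68, SE 0.17, FDR 0.0183). With vehicle it gave −0.42 (FDR 0.0757). mt-Nd6, the only protein gene on the other strand of the mitochondrial genome, had 840.1, 1014 and 1029.8 CPM in control livers, 699, 813, 798, 851 and 904 with vehicle and 588, 574, 622 and 799 with hAAM. Its hAAM-treated livers lay under all control livers, and its log2 fold change was −0.24 with vehicle and −0.57 with hAAM (FDR 0.0151). mt-Nd4l had 866, 955 and 929 CPM in control livers, 619.5, 765, 766, 787 and 821 with vehicle and 580.3, 572, 589 and 762 with hAAM, so that hAAM replicate 4 lay apart from the other hAAM-treated livers. With hAAM, mt-Nd1, mt-Nd3, mt-Nd4 and mt-Nd5 gave −0.45 (FDR 0.0479), −0.54 (FDR 0.0147), −0.56 (FDR 0.0246) and −0.53 (FDR 0.0256). mt-Cytb, the ubiquinol-oxidizing core of complex III, gave −0.21 (FDR 0.288) with vehicle and −0.47 (FDR 0.0434) with hAAM. The motor subunits mt-Atp6 and mt-Atp8, which share bases, gave −0.49 (FDR 0.0364) and −0.49 (FDR 0.026) with hAAM and −0.26 (FDR 0.195) and −0.23 (FDR 0.204) with vehicle.

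**Figure D3:**
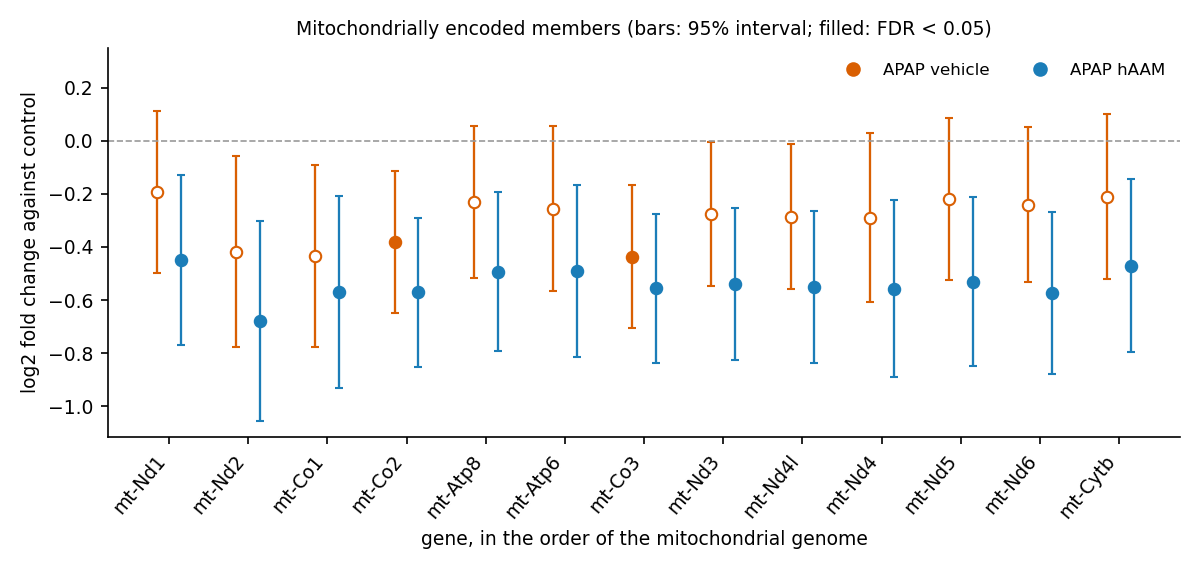
Log2 fold change against control (y axis, TMM scale) of the 13 mitochondrially encoded members in the order of the mitochondrial genome (x axis), with 95% intervals and filled points where the FDR was under 0.05. The hAAM points run from −0.68 to −0.45 and are all filled, and the vehicle points run from −0.44 to −0.19 with mt-Co2 and mt-Co3 filled. The intervals of the 2 groups overlap at every gene.

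Summed over the members, the nuclear genes held 6464, 5404 and 5260.3 CPM in control livers, 4854, 4634, 5050.2, 4269 and 4169.7 with vehicle, and 4719.9, 4295, 5611 and 5098 with hAAM. The vehicle-treated livers lay under every control liver, and hAAM replicate 3 lay within the control range. The mitochondrial genes held 45457, 49505 and 48648 CPM in control livers, 33793, 37849, 39430.2, 39056 and 40557 with vehicle, and 29599, 29150.1, 33159.8 and 39193 with hAAM. Here all treated livers lay under control, and hAAM replicate 4 lay with the vehicle-treated livers while the other hAAM-treated livers lay under all of them. The means were 47870 ± 2133 CPM (SD, n = 3) in control, 38137 ± 2614 (SD, n = 5) with vehicle and 32775 ± 4639 (SD, n = 4) with hAAM for mitochondrial genes, and 5709 ± 658 (SD, n = 3), 4595 ± 375 (SD, n = 5) and 4931 ± 559.9 (SD, n = 4) for nuclear genes. As a share of all counts with no scaling, nuclear members took 0.437% to 0.545% in control livers, 0.456% to 0.533% with vehicle and 0.489% to 0.523% with hAAM. Mitochondrial members took 3.84% to 4.25% in control livers and 3.71% to 4.43% with vehicle. With hAAM they took 3.19%, 3.32%, 3.09% and, in replicate 4, 3.99%.

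The ratio of mitochondrial to nuclear OXPHOS counts within a library needs no scaling factor. It was 7.03, 9.16 and 9.25 in control livers, 6.96, 8.17, 7.81, 9.15 and 9.73 with vehicle and 6.27, 6.79, 5.91 and 7.69 with hAAM. The mean ratio was 8.48 ± 1.26 (SD, n = 3), 8.36 ± 1.09 (SD, n = 5) and 6.66 ± 0.772 (SD, n = 4). The hAAM-treated livers overlapped both other groups through replicate 4. Without both near-identical libraries the hAAM-treated livers, at 5.91 to 6.79, lay under the vehicle-treated livers, at 6.96 to 9.73, and under the control livers. The mean with hAAM was 0.797 times that with vehicle, and 0.744 times without those libraries. No test was made on this ratio, since its genes were chosen with results of these data known. By complex the ratio with hAAM and with vehicle was 10.2 ± 1.24 and 13.2 ± 1.84 for complex I, 6.38 ± 0.885 and 8.02 ± 1.27 for complex III, 20.04 ± 2.02 and 23.7 ± 2.36 for complex IV and 1.73 ± 0.239 and 2.23 ± 0.291 for complex V (SD, n = 4 and n = 5).

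**Figure D4:**
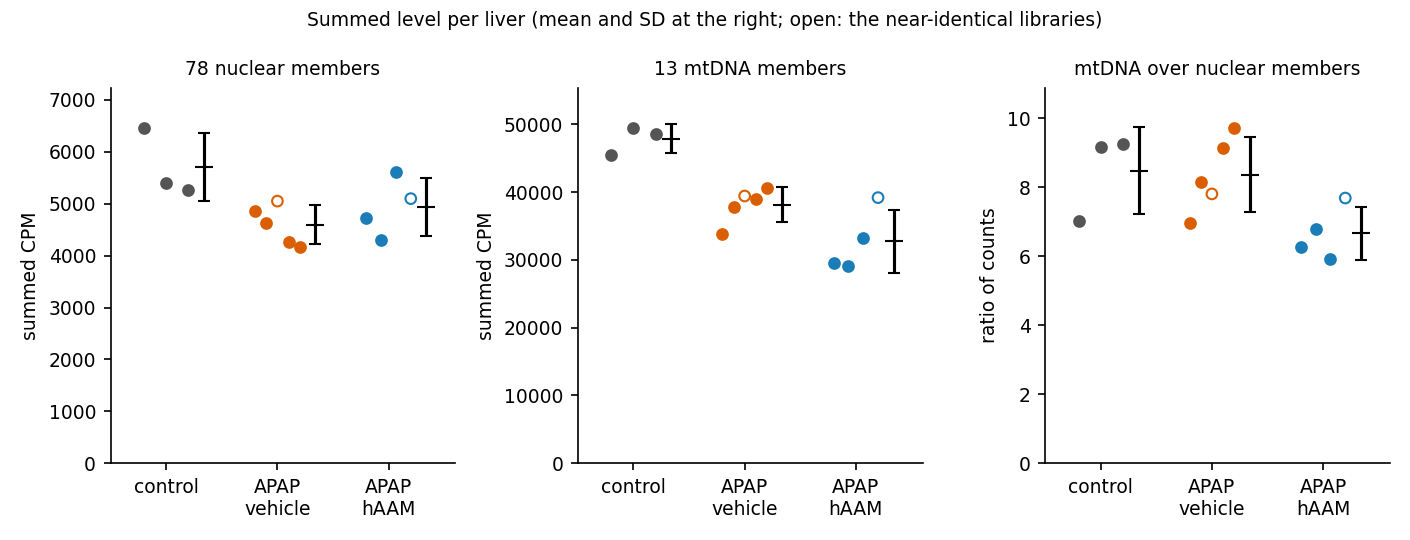
Summed CPM on the TMM scale of the 78 nuclear members (left) and of the 13 mitochondrial members (middle), and the ratio of their counts (right), in each liver by group, with y axes from 0 and mean and SD beside the points. Open circles mark the near-identical libraries, and 3 of the 4 hAAM-treated livers lie under all vehicle-treated livers in the middle and right panels, while hAAM replicate 4 lies among them.

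**Figure D5:**
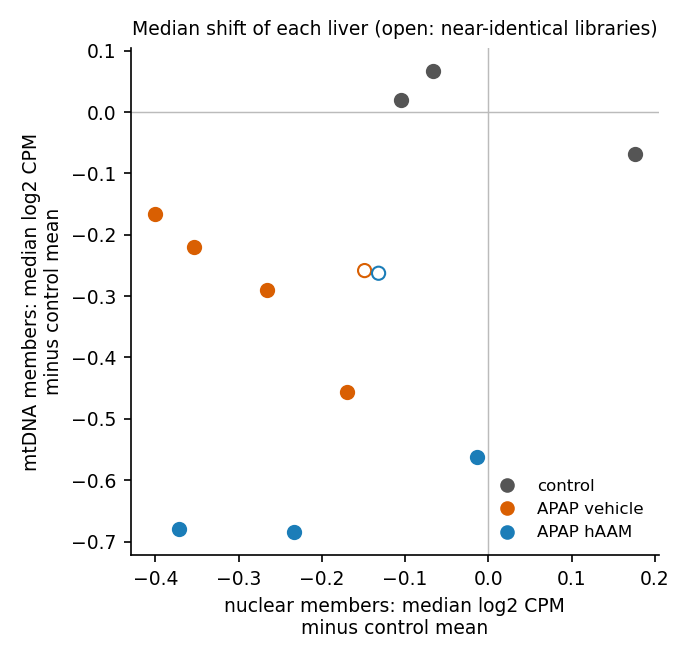
Median over nuclear members (x axis) and over mitochondrial members (y axis) of each liver's log2 CPM minus the control mean, on the TMM scale, with 1 point per liver. The hAAM-treated livers other than the open circle lie between −0.68 and −0.56 on the y axis, and the vehicle-treated livers between −0.46 and −0.17.

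Measured against each other, hAAM-treated and vehicle-treated livers gave 0 members past edgeR's test and 0 of 22581 genes, with FDR values of at least 0.966 for the members. DESeq2 called 0 members and 1 gene in all. DESeq2 named 10 members at an unadjusted p under 0.05, and its share of all genes at that threshold was not counted. At the same threshold edgeR named 4 members lower and 0 higher with hAAM, where 2.38% of all genes were lower, 2.63% higher and 5.02% either. The 4 were mt-Nd6 at a log2 fold change of −0.33 (95% interval −0.60 to −0.06), mt-Nd5 at −0.31 (−0.59 to −0.03), mt-Nd4l at −0.26 (−0.52 to −0.01) and mt-Nd3 at −0.26 (−0.52 to −0.01), all with an FDR of 0.966. No member had ranges that did not overlap, where 0.691% of all genes lay wholly lower and 0.709% wholly higher. By sign alone, 73 of 78 nuclear members were above 0 and 13 of 13 mitochondrial members were below 0, with medians of 0.09 and −0.26. Without both near-identical libraries the mitochondrial median was −0.36, 9 of 13 genes were lower at an unadjusted p under 0.05, where 3.34% of all genes were, and 0 members passed at an FDR of 0.05 (smallest FDR 0.565). The 2 comparisons with control share the control livers, so their values for a member are not independent of each other.

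Members of a complex are often switched together through short promoter sequences, and those bound by NRF1, by ETS factors such as GABP and by YY1 are known in OXPHOS genes. Of the 78 nuclear members, 66 had a RefSeq window of GRCm38.p6 from 250 bases before to 50 after the start. The palindromic NRF1 motif, 10 bases long, was in 5 of 66 windows (7.58%) and in 1.07% of 27025 genes. The letters CCGGAAG (ETS, both strands) were in 16 (24.2%) and in 9.93% of genes, and AAGATGGC (YY1, both strands) in 10 (15.2%) and in 3.19% of genes. None of the 3 letter strings contains another. Among the 29 members with a window that fell with vehicle, 8 held the YY1 letters, 8 the ETS letters and 1 the NRF1 letters, and among the 37 that were not called, 2, 8 and 4 did. Leaving out both near-identical libraries, 20 members with a window fell and 5, 7 and 1 of them held these letters, against 5, 9 and 4 of the other 46. No test was made of these counts, and a match describes the sequence only. All members with the YY1 letters are shown, in a choice made after their counts were seen, each with up to 11 bases on either side, written 5′ to 3′ along the gene with the letters in capitals.
Atp5j2 (chr5:145191500-145191529, minus strand): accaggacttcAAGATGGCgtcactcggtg
Ndufs6 (chr13:73328433-73328460, minus strand): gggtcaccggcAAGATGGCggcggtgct
Ndufs7 (chr10:80249462-80249491, plus strand): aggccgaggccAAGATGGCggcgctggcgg
Atp5f1 (chr3:105959248-105959277, minus strand): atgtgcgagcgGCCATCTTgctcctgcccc
Atp5j (chr16:84835046-84835075, minus strand): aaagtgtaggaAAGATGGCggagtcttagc
Ndufa9 (chr6:126849097-126849126, minus strand): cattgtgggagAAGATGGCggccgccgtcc
Ndufb8 (chr19:44555393-44555415, minus strand): cggagaaggtgAAGATGGCtgcc
Ndufc1 (chr3:51408915-51408944, minus strand): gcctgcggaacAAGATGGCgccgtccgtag
Ndufs4 (chr13:114388045-114388070, minus strand): ttgcctacaggAAGATGGCggcggtc
Ndufa3 (chr7:3617384-3617413, plus strand): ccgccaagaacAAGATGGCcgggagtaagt
The first 8 fell with vehicle, from −0.41 in Atp5j2 and Ndufs6 to −0.24 in Ndufc1, and Ndufs4 and Ndufa3 did not pass, at −0.22 (FDR 0.063) and −0.21 (FDR 0.0937). In 8 of the 10 the letters are read in the direction of the gene and begin 23 to 39 bases after the start. The letters contain ATG, and whether that ATG begins the coding sequence of these genes was not examined. In Atp5j the letters begin 88 bases before the start, and in Atp5f1 the reverse complement begins 3 bases before it.

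The regulators of these genes were measured in the same livers. Of 12 regulators of mitochondrial biogenesis, 5 fell and 3 rose with vehicle, and 3 fell and 1 rose with hAAM, where 14.8% and 15% of all genes did so with vehicle and 9.96% and 10.7% with hAAM. Yy1 fell from 71.4 ± 5.98 CPM (SD, n = 3) in control livers to 49.2 ± 3.53 (SD, n = 5) with vehicle (log2 fold change −0.54, FDR 0.00121) and to 50.3 ± 4.34 (SD, n = 4) with hAAM (log2 fold change −0.51, FDR 0.00378). Gabpa and Gabpb1, which form the ETS factor GABP, fell with vehicle at −0.29 (FDR 0.0103) and −0.42 (FDR 0.0165), and Nrf1 at −0.24 (FDR 0.0203). The coactivator Ppargc1a, which drives mitochondrial biogenesis and answers to fasting in liver, rose from 7.72 ± 1.53 CPM (SD, n = 3) to 17.6 ± 4.72 (SD, n = 5) with vehicle (log2 fold change 1.19, FDR 0.0228) and 22.4 ± 11.4 (SD, n = 4) with hAAM (log2 fold change 1.54, FDR 0.0129). Its relative Ppargc1b and the receptor Esrra rose with vehicle at 1.02 (FDR 0.0197) and 0.49 (FDR 0.0126). The regulators named were chosen after their values were seen. Over all 12, log2 fold changes ran from −1.04 to 1.19 with vehicle and from −1.76 to 1.54 with hAAM. Under library-size scaling 0 of the 12 fell and 4 rose with vehicle, where 4.92% of all genes fell and 38.2% rose. Without both near-identical libraries 4 fell with vehicle and 2 with hAAM, where 14% and 8.49% of all genes fell.

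The machinery around the complexes was counted from whole lists, and the genes named from them were chosen after their values were seen. The counts stand against 14.8% of all genes lower and 15% higher with vehicle, and 9.96% and 10.7% with hAAM. Of 48 assembly factors tested, 11 fell and 2 rose with vehicle and 10 fell and 0 rose with hAAM. Tmem70, which builds the membrane ring of complex V, gave −0.49 (FDR 0.000832) and −0.40 (FDR 0.00554), and Ecsit, of complex I assembly, −0.49 (FDR 0.00769) and −0.43 (FDR 0.0259). Of 27 genes that maintain and transcribe mitochondrial DNA or process its RNA, 6 fell and 1 rose with vehicle and 4 fell and 1 rose with hAAM. The mitochondrial RNA polymerase Polrmt fell from 26.9 ± 0.638 CPM (SD, n = 3) to 21.8 ± 1.37 (SD, n = 5) with vehicle (log2 fold change −0.30, FDR 0.0151) and 20.1 ± 2.01 (SD, n = 4) with hAAM (log2 fold change −0.42, FDR 0.00647), and the replicative helicase Twnk gave −0.76 (FDR 0.00427) and −0.66 (FDR 0.0167). Of 77 mitochondrial ribosomal proteins, 19 fell and 1 rose with vehicle and 13 fell and 1 rose with hAAM. Of 18 citric acid cycle genes, 9 fell and 0 rose with vehicle and 6 fell and 0 rose with hAAM, among them citrate synthase Cs at −0.57 (FDR 0.00193) and −0.48 (FDR 0.00992) and fumarase Fh1 at −0.64 (FDR 0.0064) and −0.52 (FDR 0.0287). Under library-size scaling 0 assembly factors, 1 of the 27, 1 of the 77 and 0 citric acid cycle genes fell with vehicle, and 17, 9, 28 and 5 rose. On that scale 4.92% of all genes fell and 38.2% rose with vehicle, so none of these lists rose more often than genes as a whole. Leaving out both near-identical libraries, 11, 5, 15 and 10 genes of these lists fell with vehicle and 8, 3, 10 and 5 with hAAM. In that setting 14% and 8.49% of all genes fell. Of 7 genes that feed electrons in by other routes, 0 fell with vehicle and 1, Gpd2, fell with hAAM (log2 fold change −0.95, FDR 0.043), and 0 did without both near-identical libraries.

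Of 7 subunits and partners named outside the symbol rule, 2 fell and 2 rose in both groups, and 1 fell with hAAM without both near-identical libraries. Among all genes 14.8% fell and 15% rose with vehicle, and 9.96% and 10.7% with hAAM. Under library-size scaling 0 of the 7 fell, and 3 rose with vehicle and 2 with hAAM, where 38.2% and 29% of all genes rose. Cyc1, cytochrome c1 of complex III, gave −0.40 (FDR 0.0166) and −0.36 (FDR 0.0469), and Ndufab1, the acyl carrier protein in complex I, −0.36 (FDR 0.00509) and −0.28 (FDR 0.0282). Atpif1, the inhibitor of ATP synthase running in reverse, rose from 3.9 ± 0.521 CPM (SD, n = 3) to 6.74 ± 1.14 (SD, n = 5) with vehicle (log2 fold change 0.79, FDR 0.00946) and 7.19 ± 1.67 (SD, n = 4) with hAAM (log2 fold change 0.88, FDR 0.0104). Cox4i2, a low-abundance form of Cox4i1 known from lung and low oxygen, rose at 2.44 (FDR 0.00771) and 2.09 (FDR 0.0282), from 0.0381 to 0.142 CPM in control livers to 0.271 to 0.621 with vehicle. The main form Cox4i1 gave −0.30 (FDR 0.0673) and −0.28 (FDR 0.124), and the soluble carrier Cycs 0.09 (FDR 0.589) and 0.04 (FDR 0.821).

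RNA levels of some cell type marker lists differed between these groups, and fewer cells of a type cannot be told apart from less RNA per cell in whole tissue. Pericentral hepatocyte markers fell in 6 of 6 genes with vehicle and in 3 of 6 with hAAM, and their summed level was 4440 to 6986 CPM in control livers, 347 to 1552 with vehicle and 456 to 3054 with hAAM. Of 8 general hepatocyte markers, 3 fell with vehicle and 0 with hAAM, at sums of 50246 to 81217 CPM, 59443 to 88569 and 61920 to 92772. The ratio of summed nuclear OXPHOS counts to these 8 markers was 0.0716 to 0.105 in control livers, 0.0570 to 0.0718 with vehicle and 0.0572 to 0.0694 with hAAM. Of 8 macrophage markers, 3 rose in each group, with sums of 273 to 341, 329 to 560.1 and 337 to 553 CPM. Of 5 red cell markers, 1 fell in each group and 4 rose with vehicle (list median log2 fold change 2.49). With hAAM the median was 2.21 and 0 passed as higher, whereas 4 did so without both near-identical libraries or with library-size scaling. Their sums were 135 to 240.1, 220.4 to 2025 and 226 to 733 CPM. Of 5 stellate cell markers, 2 rose in each group, with sums of 262 to 349, 352 to 534 and 347 to 658 CPM. Of the 5 periportal hepatocyte markers 1 fell and 1 rose with vehicle and 2 rose with hAAM, and of the 4 endothelial markers 1 rose with vehicle. Neutrophil, cholangiocyte and B cell lists had 0 calls, with medians of 0.81, 0.34 and 0.77 with vehicle and 0.38, 0.06 and 0.79 with hAAM. No marker of these lists was at 0 in every liver of a group. With both near-identical libraries left out, 5 pericentral markers fell with vehicle and 2 with hAAM, 1 endothelial marker fell and 1 rose in each group, and, apart from the red cell count already given, the other counts in these lists were as above. These counts stand against 14.8% of all genes lower and 15% higher with vehicle, and 9.96% and 10.7% with hAAM. Under library-size scaling, where 4.92% of all genes were lower and 38.2% higher with vehicle and 3.46% and 29% with hAAM, 5 of 6 pericentral markers fell with vehicle and 3 of 6 with hAAM. On that scale 1 general hepatocyte marker fell and 1 rose with vehicle and 1 rose with hAAM, 6 macrophage markers rose with vehicle and 5 with hAAM, and 3 endothelial markers rose with vehicle and 1 with hAAM. Periportal, stellate and cholangiocyte lists then had 3, 3 and 1 higher with vehicle and 2, 2 and 0 with hAAM. The part of these shifts in the OXPHOS values was not tested.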

How the data were processed

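Total RNA of about 10 mg of frozen liver was depleted of ribosomal RNA and made into libraries with a directional kit, and fragmentation time depended on RNA quality. Per the labels and the methods of the study, the authors trimmed reads with cutadapt 4.6, summarised read quality with FastQC and MultiQC 1.25, aligned with STAR 2.7.1a to GRCm38 and counted reads per gene with summarizeOverlaps. The deposited table holds raw counts per Ensembl gene for 12 livers, and the mode and strand setting of the counting are not given in the sources used here. Each library was taken as 1 mouse.

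Symbols and positions came from GENCODE M21, which named 24128 of 24187 genes. Genes passing filterByExpr by group (22581) were scaled by TMM and fitted with edgeR 4.0.16 in R 4.3.3, using the quasi-likelihood test on all 12 livers with group as the only factor. Tests were two-sided, with the Benjamini-Hochberg FDR over all genes tested and a threshold of 0.05. Levels are CPM on the TMM scale, and per-liver log2 CPM used a prior count of 2. Intervals are at 95%. The script was tested on simulated counts. Members and gene lists were chosen with earlier results of these data known, so lists and sums over members received no test. Genes named with values were all mitochondrial and Sdh members, the 3 largest calls per complex and comparison (smallest p where fewer passed), the 3 smallest p between treated groups, core catalytic subunits and isoform groups, and others named were chosen after their values were seen. One gene that this rule names is not reported here. Alternatives were DESeq2 1.42.0, other scalings, filters and thresholds, fits with 2 groups, a replicate block, removal of a gene-length trend, and leaving out single libraries or both near-identical ones. Total counts of 47391650 to 74056505 per liver set the counting precision, and the spread between livers set the tests.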

Additional observations from a re-analysis of the deposited data

Results flagged for a closer look

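In groups of 4 or 5 livers, 10 of the 134 groups of values tested held 1 liver far from the others, where chance gives about 1 in 20. In hAAM replicate 4, the library close to identical to vehicle replicate 3, mt-Nd4 was at 4012 CPM against 2985 to 3099 in the other hAAM-treated livers. In the same liver mt-Nd4l was at 762 CPM against 572 to 589, and mt-Cytb at 4227 CPM against 3256 to 3321. mt-Cytb is the only mitochondrial member of complex III, so the summed complex III value of this liver, 4227 CPM, repeats it. In vehicle replicate 1, mt-Nd4l was at 619.5 CPM against 765 to 821 in the other vehicle-treated livers. mt-Cytb was at 3549 CPM against 4291 to 4591 there, which the complex III sum repeats, and mt-Co2 was at 2705 CPM against 3026 to 3086. The mitochondrial values named share 1 of 2 libraries. Among nuclear members, Ndufa4l2 was at 4.41 CPM in vehicle replicate 4 against 1.47 to 2.20 in the other vehicle-treated livers. Cox6b2 was at 0.104 CPM in vehicle replicate 2 against 0.290 to 0.311, a gene with few counts in every liver.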

How the results depend on the processing

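Counts are given as nuclear lower and mitochondrial lower with vehicle, and then with hAAM, where the values reported were 32 and 2, then 7 and 13. Beside them, 3339 and then 2248 of 22581 genes were lower. Under library-size scaling the counts were 0 and 0, then 0 and 0, while 9 members were higher with vehicle and 10 with hAAM. Among all genes 4.92% were lower and 38.2% higher with vehicle, and 3.46% and 29% with hAAM. In that setting the mean summed level relative to control was 1.02 (vehicle) and 1.06 (hAAM) times for nuclear members and 1.01 and 0.840 times for mitochondrial members, and 12 of the 34 members called lower with vehicle changed sign, among them Ndufa1 (0.025), Uqcrh (0.041), Cox5a (0.0096), Cox5b (0.068), Cox6b1 (0.057) and Cox6c (0.048). At an FDR of 0.01 the counts were 7 and 0, then 1 and 0, with 0 higher, where 1666 and then 853 of 22581 genes were lower. With a replicate block the counts were 7 and 3, then 3 and 10, with 0 higher with hAAM. In that fit 2062 and then 1399 of 22581 genes were lower, so nuclear members were called no more often than genes as a whole. Same-numbered libraries correlated over 0.1 in 3 of 10 pairs (−0.458 to 0.385). Pairs with different numbers were not compared, so these values cannot show whether a number marks a shared animal or batch. With a gene-length trend removed, 49 nuclear members were lower with vehicle and 14 with hAAM. More genes were lower in all in that fit, 4633 of 22581 with vehicle and 3319 with hAAM. DESeq2 gave 5 mitochondrial members lower with vehicle, 1 member higher with vehicle and 11 nuclear members lower with hAAM. It called 3814 of 22581 genes lower and 3860 higher with vehicle, and 2747 lower with hAAM. With the 2 compared groups alone, 1 member was higher with vehicle, and with hAAM 3 nuclear and 2 mitochondrial members were lower and 0 higher. In those fits 3602 of 22227 genes were higher with vehicle, and 1320 of 21492 were lower and 1409 higher with hAAM. With at least 10 counts in every library 1 member was higher with vehicle, where 3009 of 18537 genes were. Without both near-identical libraries 2 members, Atp5s and Ndufa4l2, were higher in each group, where 16% of all genes were with vehicle and 11.1% with hAAM. Leaving out 1 library gave 7 to 38 nuclear and 0 to 3 mitochondrial members lower and 0 to 1 higher with vehicle. With hAAM it gave 3 to 19 nuclear and 3 to 13 mitochondrial members lower and 0 to 1 higher. Across the fits without 1 library, 2407 to 3564 genes in all were lower with vehicle and 1307 to 2551 with hAAM. hAAM against vehicle gave 0 members lower and 0 higher in each of these fits. Except where fewer libraries or a stricter threshold made the difference by construction, the cause was not tested. Depth was lowest for Cox6b2, at 4 to 9 counts per control liver, and Ndufa4l2, at 39 to 53.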
